A study of Mus musculus with 4 samples.

Results

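The 9 genes described here encode cytosolic RNA sensors of the RIG-I-like receptor family (Ifih1, Ddx58 and Dhx58), their adaptor (Mavs), and transcription factors that act before or within the interferon response (Stat2, Irf1, Irf3, Irf7 and Irf9). They were chosen by name for these roles, with earlier results of these data known, and each was read from the probe set with exactly 1 gene symbol and the highest mean, so that all 9 were found among the 19938 genes named in this way. Expression was measured on Affymetrix arrays in DN4 thymocytes, which are immature T cells of the thymus that have passed the pre-TCR checkpoint and have not yet gained CD4 and CD8. The Cre+ group held 2 Ikf/f Rosa26-CreERT2+ mice (129 and 135) and the Cre- group 2 Ikf/f mice (131 and 137). In every mouse Ikzf1, the gene of the zinc-finger protein Ikaros, was thus flanked by loxP sites, and every mouse was given tamoxifen (50 mg/kg) on each of 4 days, with cells taken 24 h after the last dose. The Rosa26 locus is active in most cell types, so deletion is not limited to thymocytes in this model. The Cre- mice carried no recombinase, so that loss of Ikaros and activity of the recombinase itself cannot be told apart.

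RIG-I-like receptors are helicases that bind viral or misplaced cellular RNA in the cytosol. Those with CARD domains pass the signal to MAVS on mitochondria, which leads to phosphorylation of IRF3 and IRF7 and to transcription of type I interferon genes. Secreted interferon then acts through its receptor and Janus kinases on STAT2 and IRF9, which are parts of the factor ISGF3. ISGF3 binds interferon-stimulated response elements in many genes, including those of several sensors and IRFs, so that the pathway can amplify its own components.

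The promoter stretches below are shown because they hold the letters to which IRFs and ISGF3, or STAT dimers, are known to bind. Both strands of RefSeq promoters (250 bases before to 50 after each gene's start, GRCm38.p6) were searched for the core of an interferon-stimulated response element (GAAA, any 2 bases and GAAA again), for a gamma-activated site (TTC, any 3 bases and GAA) and for an NF-kappa-B site (GGGAC directly followed by TTTCC). No match of one motif overlapped a match of another in these genes. Of the 9 genes, 8 had a promoter in the table, with 10 promoters in all, since Irf1 and Irf9 had 2 each, and the gene without one was Dhx58. The response element core was found for 3 genes (Ifih1, Ddx58 and Stat2), the gamma-activated site for 1 (Irf1) and the NF-kappa-B site for 0. Of all 27025 genes with promoters of this length, 3.99% held the first motif, 9.55% the second and 0.174% the third, and of all 32851 promoters 3.44%, 8.30% and 0.155% did. Each line gives 30 bases of the gene's own strand, 5′ to 3′, with the match in capitals.
Ifih1: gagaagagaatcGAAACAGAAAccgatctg
Ddx58: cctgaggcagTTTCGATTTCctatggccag
Stat2: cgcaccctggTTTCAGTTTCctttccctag
Irf1: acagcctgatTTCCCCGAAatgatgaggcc

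The Ifih1 stretch lies at chr2:62646206-62646235 on the minus strand, and its match begins at base 33 after the gene's start. The Ddx58 stretch lies at chr4:40239804-40239833 on the minus strand, with the match on the opposite strand and beginning at base 3 after the start. The Stat2 stretch lies at chr10:128270266-128270295 on the plus strand, with the match on the opposite strand and 222 bases before the start. The Irf1 stretch lies at chr11:53769914-53769943 on the plus strand, and its match, to a pattern that is the same on both strands, begins 90 bases before the start. These matches describe letters only, and no binding was measured here.

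The arrays gave log2 values with medians between 6.85 and 6.88, and all values of the 9 genes lay above these medians. Ikzf1 itself read 12.06 and 11.99 in Cre+ cells, against 12.07 and 12.11 in Cre- cells. Where its probes lie relative to the deleted part was not analysed here, so this value does not check the labels, while the design text states that the protein was gone from sorted Cre+ cells on a western blot. The labelled cell type was compared with 9 measured T lineage markers, which lay between 9.40 and 13.4 on every array. At an unadjusted p under 0.05, 4 of these were higher in Cre+ cells (Ptcra, Cd3e, Cd3d and Cd3g), and the 3 CD3 chain genes passed the test among probe sets with 1 gene symbol, led by Cd3d (0.66, SE 0.08, adjusted p from limma 0.00432), also with each array left out in turn. The part of this shift in the results below was not tested. Cd3e, a chain of the T cell receptor complex, read 13.16 and 13.05 in Cre+ cells against 12.86 and 12.84 in Cre- cells. Here and below, levels are log2 RMA values, with mouse 129 before 135 in Cre+ and mouse 131 before 137 in Cre-. By the level of Xist each group held 1 female mouse (129 in Cre+, 131 in Cre-) and 1 male mouse (135 in Cre+, 137 in Cre-).

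With limma over all 35556 probe sets, 0 of the 9 genes passed an adjusted p of 0.05, and the share called in the whole table was 0%. At an unadjusted p under 0.05 there were 2356 probe sets in all, against 1778 expected by chance. At that unadjusted level 4 of the 9 genes were higher in Cre+ cells (Ifih1, Dhx58, Irf7 and Irf9) and 0 were lower, where 4.12% of all named genes were higher and 2.74% lower. The 2 Cre+ values both lay above the 2 Cre- values for 5 of the 9 genes (these 4 and Ddx58), against 16.1% of all named genes, and both lay below for 1 (Irf3), against 20.3%. In a test restricted to the 21789 probe sets that carry 1 gene symbol, 1 of the 9 passed (Ifih1, higher), against a background of 0.936% of probe sets called higher and 0.285% called lower. The median difference of the 9 genes was 0.40 on the log2 scale, and that of all named genes was -0.01.

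**Figure D1:**
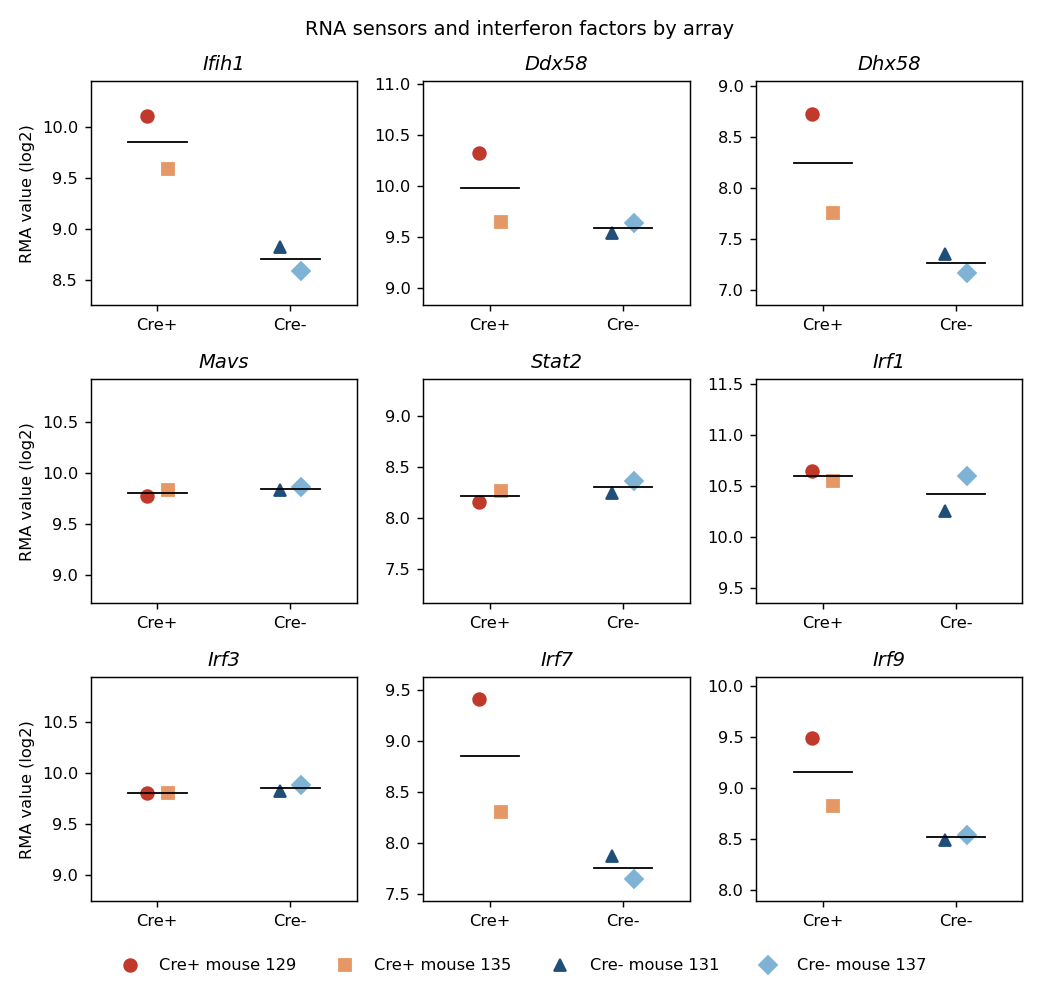
RMA values (log2) of the 9 genes in each mouse, with Cre+ on the left and Cre- on the right of each panel; bars are group means and every panel spans the same log2 range. Ifih1, Dhx58, Irf7 and Irf9 were higher in both Cre+ mice than in both Cre- mice, with mouse 129 above mouse 135, while Mavs, Stat2 and Irf3 differed by less than 0.1 between the groups.

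Of the sensors, Ifih1 encodes MDA5, which binds long double-stranded RNA. It was at 10.11 and 9.59 in Cre+ mice 129 and 135, against 8.83 and 8.59 in Cre- mice 131 and 137. The groups did not overlap, and the gap between them was wider than the spread within either group. The difference was 1.14 (SE 0.19, 95% interval 0.64 to 1.64), or 2.21-fold. Its adjusted p from limma was 0.316 over all probe sets and 0.0167 among probe sets with 1 gene symbol. In that restricted test Ifih1 rose with each array left out in turn, an alternative chosen after seeing the data, with an adjusted p from limma between 0.000237 and 0.0129.

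Dhx58 encodes LGP2, a family member without CARD domains that modulates the signalling of the other sensors. It read 8.73 and 7.76 in Cre+ cells, against 7.36 and 7.18 in Cre- cells. Mouse 129 stood well above the other 3, and mouse 135 lay closer to the Cre- mice than to mouse 129. The difference of 0.98 (SE 0.32, 95% interval 0.14 to 1.81) had an adjusted p from limma of 0.664 over all probe sets and of 0.173 in the restricted test.

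Ddx58 encodes RIG-I, which binds short RNA with a 5′ triphosphate. It read 10.32 and 9.65 in Cre+ cells, against 9.54 and 9.64 in Cre- cells. Only mouse 129 stood apart, since mouse 135 was level with mouse 137. The difference was 0.40 (SE 0.22, 95% interval -0.18 to 0.97), with an adjusted p from limma of 0.909, and it was 0.06 without mouse 129. The 3 sensors thus gave different values in mouse 135, where Ifih1 lay 0.88 above the mean of the Cre- mice, Dhx58 0.50 and Ddx58 0.06. In mouse 129 the same differences were 1.40 for Ifih1, 1.46 for Dhx58 and 0.73 for Ddx58.

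Mavs, the mitochondrial adaptor on which RIG-I and MDA5 converge, read 9.78 and 9.83 in Cre+ cells, against 9.83 and 9.86 in Cre- cells. The groups overlapped, and the 4 values lay within a narrow range. The difference was -0.04 (SE 0.07), and its 95% interval of -0.21 to 0.13 holds no change as large as those measured for Ifih1, Dhx58 or Irf7.

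Among the transcription factors, Irf7, which drives interferon alpha genes and is itself induced by interferon, read 9.41 and 8.30 in Cre+ cells, against 7.87 and 7.64 in Cre- cells. Both Cre+ values were above both Cre- values, and the Cre+ mice differed from each other by more than mouse 135 differed from the Cre- mice. The difference of 1.10 (SE 0.37, 95% interval 0.15 to 2.05), or 2.14-fold, had an adjusted p from limma of 0.679 over all probe sets and of 0.178 in the restricted test. Mouse 129 was 3.14-fold above the mean of the Cre- mice and mouse 135 was 1.45-fold above it.

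Irf9, the DNA-binding subunit of ISGF3, read 9.48 and 8.82 in Cre+ cells, against 8.49 and 8.54 in Cre- cells. The Cre- mice were almost level, and mouse 129 lay farther from mouse 135 than mouse 135 lay from them. The difference was 0.64 (SE 0.22, 95% interval 0.07 to 1.21), with an adjusted p from limma of 0.699 over all probe sets and of 0.213 in the restricted test. Stat2, the partner that gives ISGF3 its activation domain, read 8.16 and 8.26 in Cre+ cells, against 8.24 and 8.36 in Cre- cells. Stat2 overlapped between the groups, with a difference of -0.09 (SE 0.10, 95% interval -0.35 to 0.16). The response element core was printed above for Stat2, Ifih1 and Ddx58. It was not found for Irf7 or Irf9, and Dhx58 had no promoter to search. Only this core pattern within the searched stretch was sought, so a missing match does not show that a gene lacks an element. The part of such elements in the differences was not tested.

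Irf3, which is present before stimulation and activated by phosphorylation, read 9.81 and 9.80 in Cre+ cells, against 9.82 and 9.88 in Cre- cells. The groups did not overlap, but all 4 values lay close together, with a difference of -0.04 (SE 0.06, 95% interval -0.21 to 0.12). Irf1, a factor induced by interferon gamma, read 10.64 and 10.55 in Cre+ cells, against 10.25 and 10.59 in Cre- cells. Only Cre- mouse 131 was lower than the rest, so the groups overlapped. The difference was 0.18 (SE 0.12, 95% interval -0.15 to 0.50), and it was 0.00 without mouse 131. A second Irf1 probe set, with a lower mean, differed by -0.05 (SE 0.10).

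**Figure D2:**
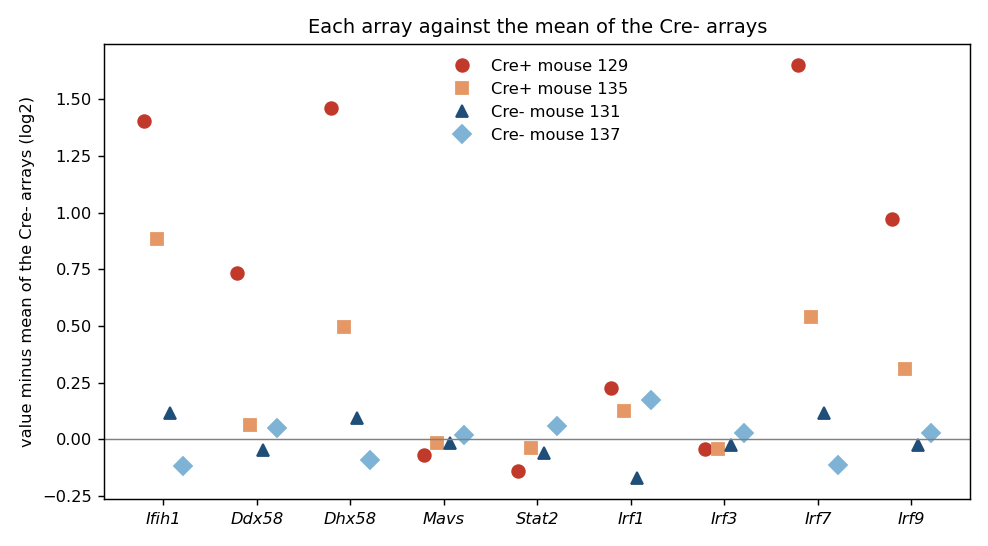
Value of each array minus the mean of the 2 Cre- arrays (log2) for the 9 genes. Cre+ mouse 129 lies 0.73 to 1.65 above the Cre- mean for Ifih1, Ddx58, Dhx58, Irf7 and Irf9, and Cre+ mouse 135 lies 0.06 to 0.88 above it for the same genes.

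The Cre+ mice differed from each other in these genes. For the 5 genes whose groups did not overlap upward, mouse 129 exceeded mouse 135 in 5 of 5, by 0.52 for Ifih1, 0.67 for Ddx58, 0.97 for Dhx58, 1.11 for Irf7 and 0.66 for Irf9. The Cre- mice differed by no more than 0.23 for any of these. Ifih1 was the gene of the 5 with the smallest gap between the Cre+ mice and the largest difference in mouse 135. The remaining 4 genes (Mavs, Stat2, Irf1 and Irf3) differed by at most 0.10 between the Cre+ mice. Without mouse 129 the differences were 0.88 for Ifih1, 0.06 for Ddx58, 0.50 for Dhx58, 0.54 for Irf7 and 0.31 for Irf9. Without mouse 135 they were 1.40, 0.73, 1.46, 1.65 and 0.97 in the same order. Each of these fits leaves 1 Cre+ mouse, which is assumed to vary like the Cre- mice.

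The difference was also taken within each sex. In the female pair, mouse 129 minus mouse 131, it was 1.29 for Ifih1, 0.78 for Ddx58, 1.37 for Dhx58, 1.54 for Irf7 and 0.995 for Irf9. In the male pair, mouse 135 minus mouse 137, it was 1.0 for Ifih1, 0.01 for Ddx58, 0.59 for Dhx58, 0.66 for Irf7 and 0.29 for Irf9. The positive signs follow from how these 5 genes were chosen, since both Cre+ values lay above both Cre- values for each. Only the sizes differ between the pairs. With 1 mouse of each sex in a group, sex and mouse cannot be told apart here.

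**Figure D3:**
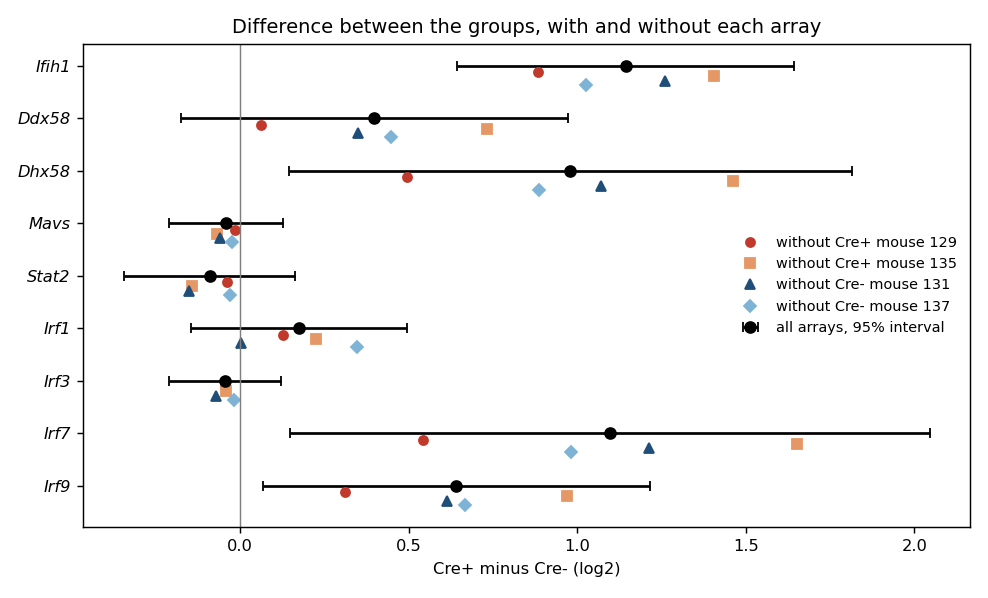
Difference Cre+ minus Cre- (log2) of the 9 genes from limma with its 95% interval (black), and the same difference with each array left out (coloured points). The intervals of Ifih1, Dhx58, Irf7 and Irf9 lie above 0, and the values without mouse 129 are the lowest for these and for Ddx58, down to 0.06.

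The rest of the pathway was compared with 7 further gene lists. Cofactors and kinases of the RIG-I-like receptors (17 of 18 measured) had a median difference of -0.02, with 1 gene at an unadjusted p under 0.05 in each direction. The higher one was Trim25, the ubiquitin ligase known to act on RIG-I, with 10.36 and 10.23 in Cre+ cells against 9.93 and 9.94 in Cre- cells. Its difference was 0.36 (SE 0.07), with an adjusted p from limma of 0.375 over all probe sets and of 0.0621 in the restricted test. The lower one was Rnf125, a ubiquitin ligase that marks RIG-I and MDA5 for degradation, with 10.36 and 10.26 in Cre+ cells against 10.73 and 10.77 in Cre- cells. Rnf125 differed by -0.45 (SE 0.06) and fell in the restricted test (adjusted p from limma 0.0167). It also passed there with each array left out in turn, with an adjusted p of at most 0.0397. Both genes had similar values in the 2 Cre+ mice, unlike Dhx58 or Irf7. The kinase gene Tbk1, which phosphorylates IRF3, differed by -0.03 (SE 0.09), Nlrx1 by 0.19 (SE 0.09) and Rnf5 by -0.12 (SE 0.11).

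Other nucleic acid sensors (17 of 17 measured) had a median of 0.00, with 1 gene higher and 1 lower at the unadjusted level. Eif2ak2, the gene of the double-stranded RNA-dependent kinase PKR, read 9.19 and 9.10 in Cre+ cells, against 8.58 and 8.52 in Cre- cells. The groups were well apart and the mice within each were close. The difference was 0.59 (SE 0.09), and Eif2ak2 rose in the restricted test (adjusted p from limma 0.0187), a call that was lost without mouse 129 (0.126), where the difference was 0.55. Aim2, a sensor of cytosolic DNA, read 7.54 and 7.85 in Cre+ cells, against 8.10 and 8.22 in Cre- cells, giving -0.47 (SE 0.14), which did not pass (0.168). The helicase gene Ddx60 differed by 0.53 (SE 0.30), with 0.96 in mouse 129 and 0.10 in mouse 135, and Sting1, the adaptor of DNA sensing, by -0.11 (SE 0.08).

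The other IRF and STAT genes (9 of 11 measured) had a median of 0.07, with 1 higher and 1 lower at the unadjusted level. Stat3, the main factor of IL-6 type cytokines, differed by 0.21 (SE 0.06) and Stat4, that of IL-12, by -0.17 (SE 0.07), neither passing the restricted test. Stat5b differed by 0.10 (SE 0.05) and Stat6 by 0.08 (SE 0.06). Irf2, a repressor at response elements, differed by -0.01 (SE 0.09) and Irf8, a factor of myeloid and B cells, by 0.07 (SE 0.10).

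Interferon receptors and Janus kinases (9 of 9 measured) had a median of -0.04, with 0 higher and 3 lower at the unadjusted level, and 0 passed the restricted test. Ifnar2, a chain of the type I interferon receptor, read 10.89 and 10.96 in Cre+ cells, against 11.12 and 11.13 in Cre- cells, which gave -0.19 (SE 0.05). Ifngr1, the ligand-binding chain of the interferon gamma receptor, differed by -0.19 (SE 0.04), Il10rb, shared by the interferon lambda and IL-10 receptors, by -0.37 (SE 0.14), and Ifnar1 by -0.11 (SE 0.07).

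Interferon ligands (15 of 19 measured) had a median of 0.00, with 0 genes past the unadjusted level in either direction. Ifnb1, the interferon beta gene, read 5.11 and 5.0 in Cre+ cells, against 5.17 and 5.15 in Cre- cells, below the median of the arrays. Its difference was -0.10 (SE 0.08). Ifnab differed by 0.39 (SE 0.18), Ifng, the interferon gamma gene, by 0.16 (SE 0.10), Ifna12 by -0.24 (SE 0.16) and Ifna13 by -0.09 (SE 0.06). No background level was set for the probes.

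Genes that restrain sensing or signalling (16 of 16 measured) had a median of 0.02, with 2 higher and 1 lower at the unadjusted level and 0 in the restricted test. Usp18, which removes ISG15 from proteins and blocks the type I interferon receptor, read 11.31 and 10.10 in Cre+ cells, against 9.56 and 9.40 in Cre- cells. As for Irf7, mouse 129 was far above mouse 135, which in turn was above both Cre- mice. The difference was 1.22 (SE 0.39), with an adjusted p from limma of 0.143 in the restricted test. Socs3 differed by 0.44 (SE 0.15), the phosphatase genes Ptpn2 and Ptpn11 by -0.14 (SE 0.05) and 0.16 (SE 0.07), and Adar, whose product edits double-stranded RNA and so limits its recognition by MDA5, by 0.27 (SE 0.14).

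Interferon-stimulated effector genes (20 of 24 measured) had higher means in 20 of 20 cases, where 45.9% of all named genes did, with a median of 0.63. Against the Cre- mean this list's median was 0.92 in mouse 129 and 0.31 in mouse 135. The Cre+ values both lay above the Cre- values for 16 of the 20, against 16.1% of all named genes. For Bst2, mouse 135 (9.46) lay below both Cre- mice (9.85 and 9.79). At the unadjusted level 11 were higher, against 4.12% of all named genes. In the restricted test, where 0.936% of probe sets were called higher, 2 passed, Oas1a (0.87, SE 0.15) and Irgm1 (0.61, SE 0.12). Both calls were lost without mouse 129, where the differences were 0.72 for Oas1a and 0.45 for Irgm1. Xaf1 differed by 0.97 (SE 0.22) and Rtp4 by 1.32 (SE 0.32).

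**Figure D4:**
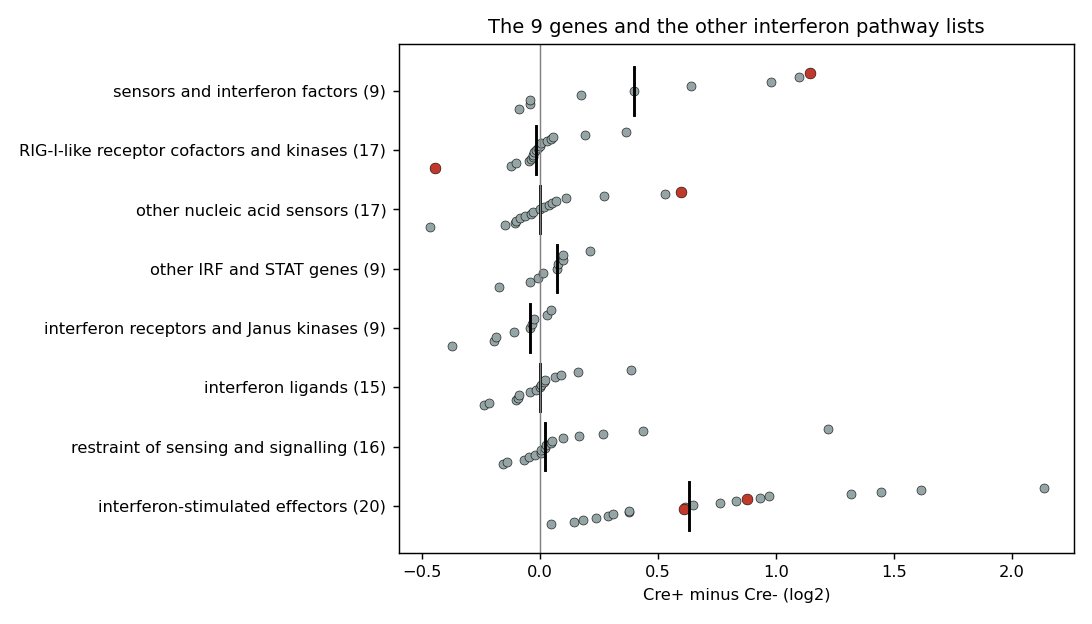
Difference Cre+ minus Cre- (log2) of each measured gene in the 9 sensors and interferon factors and in 7 further lists, with the number of measured genes in brackets; vertical bars are list medians and red points passed limma's test among probe sets with 1 gene symbol. The medians are 0.40 for the 9 genes and 0.63 for the effectors, and lie between -0.04 and 0.07 for the remaining lists.

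Markers of other cell types that a DN4 sort could hold were read beside these values. In bulk RNA a change in the share of a cell type and a change in RNA per cell cannot be told apart. Plasmacytoid dendritic cells are a strong source of type I interferon. Of their 6 measured markers 1 was higher at the unadjusted level (Tcf4, 0.39, SE 0.07). Tcf4 also passed the restricted test (adjusted p from limma 0.0452). With each array left out in turn, that call was kept only without mouse 137. Tcf4 lay 0.38 above the Cre- mean in mouse 129 and 0.40 in mouse 135, and its part in the results on the sensors was not tested. The mean level of the list was 8.12 and 8.06 in Cre+ cells against 8.02 and 8.06 in Cre- cells. Siglech, the defining surface marker, read 6.12 and 6.21 in Cre+ cells, against 6.21 and 6.15 in Cre- cells. These values lay below the medians of the arrays (6.85 to 6.88), and no background level was set for the probes. The 12 macrophage and dendritic cell markers averaged 6.31 and 6.51 in Cre+ cells against 6.27 and 6.47 in Cre- cells. Of these, 8 had a higher mean in Cre+ cells and 4 a lower one. At the unadjusted level 1 was higher, the lysozyme gene Lyz2, with a difference of 1.04 (SE 0.18). Lyz2 read 7.56 and 7.59 in Cre+ cells, against 6.79 and 6.29 in Cre- cells. It rose in the restricted test (adjusted p from limma 0.0206), and its part in the results on the sensors was not tested. Csf1r, a defining marker of macrophages, read 5.63 and 5.57 in Cre+ cells, against 5.61 and 5.52 in Cre- cells, also below the medians of the arrays. H2-Aa read 6.51 and 6.67 in Cre+ cells, against 6.59 and 7.73 in Cre- cells. Cd74 read 7.02 and 7.45 in Cre+ cells against 7.14 and 8.28, and H2-Ab1 8.42 and 9.07 against 8.31 and 8.73. Mice of the same group thus differed in these genes, and their part in the results was not tested. The lists of B cells, natural killer cells, gamma-delta T cells, thymic epithelium, erythroid cells and more mature thymocytes had medians between -0.27 and 0.02. Outside the more mature thymocytes, Cd79a (-0.35, SE 0.12), Gzma (-0.19, SE 0.03), Epcam (-0.48, SE 0.15) and Blk were lower at the unadjusted level, and Cd79b (0.25, SE 0.09) higher. Of all named genes, 2.74% were lower and 4.12% higher at that level. Blk, of the B cell and gamma-delta lists, read 7.41 and 7.39 in Cre+ cells, against 7.90 and 7.91 in Cre- cells. It fell in the restricted test (-0.51, SE 0.09, adjusted p from limma 0.0463), and its part was not tested. Of the 6 markers of more mature thymocytes, 1 was higher at the unadjusted level (Cd4, 0.54, SE 0.11). The 3 lower ones were Cd8a (-0.61, SE 0.21), Cd8b1 (-0.27, SE 0.08) and S1pr1 (-0.26, SE 0.09). Cd4 read 7.88 and 7.94 in Cre+ cells, against 7.26 and 7.47 in Cre- cells. Cd8a read 8.07 and 8.59 against 8.77 and 9.12, and Cd8b1 11.50 and 11.59 against 11.72 and 11.91. Cd4, Cd8a and Cd8b1 thus lay above the medians of the arrays in every mouse. The part of more mature thymocytes in the results was not tested.

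Of all other named genes, those whose pattern over the 4 arrays was closest to that of Ifih1, by the root mean square distance between centred log2 values, were A930003A15Rik, Eng, Hhipl2, Lamb2 and Wscd1. Ifih1 was used for this because it had the smallest p of the 9 genes. The distances ranged from 0.0621 for A930003A15Rik to 0.139 for Wscd1, and Pearson's r over the 4 arrays from 0.976 for Wscd1 to 0.997 for A930003A15Rik, given as a description since the points share the same 4 arrays. Eng, the gene of the TGF-beta co-receptor endoglin, read 9.60 and 9.15 in Cre+ cells, against 8.17 and 8.23 in Cre- cells. Lamb2, a laminin chain gene, read 8.78 and 8.08 in Cre+ cells, against 7.23 and 7.32 in Cre- cells. None of these 5 was among the 7 pathway lists.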

How the data were processed

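Total RNA of sorted DN4 cells was amplified in 2 labelling cycles and hybridised to arrays, 1 for each mouse, as the labels' protocols state. The deposited log2 expression values come from RMA according to the submitters' processing notes, and the RMA version is not given in the sources used here. Of 35556 probe sets, 21789 had 1 gene symbol in the platform annotation, 1621 had several and 12146 were not listed there; lookup by gene number changed 0 symbols.

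Groups were compared with limma 3.58.1 in R 4.3.3 (lmFit, eBayes with trend, Benjamini-Hochberg over all probe sets). With 2 mice a group an exact permutation test cannot go below p = 0.333. Differences are Cre+ minus Cre- (log2) with limma's moderated SE. The named genes are the 9 members, the 4 smallest p of each pathway list and 10 fixed genes of the pathway; marker genes are named by list. Members and lists were chosen with earlier results of these data known. The fit was tested on 5 simulated data sets of the Cre+ and Cre- arrays with 35556 probe sets. Each held 200 planted changes, with noise drawn from limma's fitted prior variance. The fit found 64.2% of changes of 2-fold and 96.4% of those of 4-fold, and made a mean of 9 false calls. These shares hold for that noise and that number of changes only. Unused sample columns numbered 0.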

Additional observations from a re-analysis of the deposited data

Results flagged for a closer look

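Irf1 moved in opposite directions in the pairs of the same sex. Mouse 129 (Cre+) minus mouse 131 (Cre-), the female pair, gave 0.397 on the log2 scale, and mouse 135 (Cre+) minus mouse 137 (Cre-), the male pair, gave -0.0463. Each pair holds 1 mouse per group, so this difference was not tested. It was the 1 gene of the 9 with opposite signs. Mouse 131 was also the array with the lowest Irf1 value, 10.25.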

How the results depend on the processing

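With 2 mice a group, the number of arrays limits every value. The labels pair no mice, as the groups share no mouse number; sex as a block, which sets 129 with 131 and 135 with 137, called 0 of the 9 genes (lowest adjusted p from limma 0.122, for Ifih1). Over all alternatives each of the 9 genes kept the sign of its difference, with Irf1 down to 0.00 without mouse 131. Limited to probe sets with 1 gene symbol, which changes both the number of tests and the variance that limma pools, limma called 266 probe sets and 1 of the 9 genes, Ifih1 (1.14, adjusted p = 0.0167), against 0 over all probe sets. The whole table gave 10 calls after centring of the arrays, 25 with a filter at the 25th percentile and 80 with a filter at the median, with 0 of the 9 genes called, although all 9 passed both filters, and the cause was not tested. Repeated quantile normalization, cyclic loess, eBayes without trend or robust, array weights, the mean of the Irf1 probe sets, sex as a block and leaving out an array gave 0 calls over all probe sets. In the restricted test with an array left out, added after seeing the data, 138 probe sets were called without mouse 129, 480 without 131, 276 without 135 and 385 without 137, with 1 of the 9 genes each time or 5 without 135. Ifih1 then differed by 0.88, 1.26, 1.40 and 1.03 in the same order. Without mouse 135, where Cre+ is mouse 129 alone and is assumed to vary like the Cre- mice, Ddx58 (0.73), Dhx58 (1.46), Irf7 (1.65) and Irf9 (0.97) were called too. The count of the 9 genes at an unadjusted p under 0.05 was 3 without mouse 129, 5 without 135, 1 without 131 and 2 without 137, against 4 with all arrays.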
